A study of Mus musculus with 5 samples.

Results

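The SLF1, RAD18 and SMC5/6 genes were examined in the mouse mammary carcinoma cell line 6DT1, as 7 of the 19938 genes measured on 5 Affymetrix arrays. The 7 genes, *Slf1*, *Slf2*, *Rad18*, *Smc5*, *Smc6*, *Nsmce1* and *Nsmce2*, were taken by symbol, and all 7 were found. The level of each gene was read from the probe set with 1 gene symbol and the highest mean over the 5 arrays, so that probe sets were chosen by their level. *Slf1* itself was selected on its fold change: earlier results of these arrays had placed it among the lowest, so that its difference between the cohorts is a description and carries no test. The other 6 genes were chosen for what their proteins bind, but also with earlier results of these data known. Their p-values and counts are therefore not independent of that choice. Each array held RNA from 1 line. The *Arid4b* knockdown cohort (n = 2 lines) comprised H3 and H4, which carried lentiviral pLKO.1 hairpins against *Arid4b*, were selected with puromycin and had low ARID4B protein. The control cohort (n = 3 lines) comprised H5, puromycin-selected with a further *Arid4b* hairpin but with normal ARID4B protein, a puromycin-selected line with a scrambled hairpin in pLKO.1, and untransduced cells that were not selected. ARID4B densitometry in the labels was 0.19 in H3 and 0.15 in H4, compared with 1.09 in untransduced cells, 1.02 in H5 and 1.00 with the scrambled hairpin. The stable lines were pooled clones, and no line was arrayed more than once. The p-values given here therefore measure the spread between lines, part of which may be technical, and having 5 arrays limits their precision.

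SMC5 and SMC6 are long coiled-coil ATPases that pair to form the core of a ring-shaped complex related to cohesin and condensin, which helps cells resolve replication and recombination intermediates. Around this core sit the NSMCE subunits, among them a RING-type protein with ubiquitin ligase activity (NSMCE1) and a SUMO ligase (NSMCE2). RAD18 is the ubiquitin ligase that modifies PCNA at stalled forks and also gathers at damaged chromatin. SLF1 binds RAD18 and SLF2, and SLF2 connects the pair to SMC5/6, so that the complex is brought to the lesion.

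Promoter sequences are shown for 3 genes, because *Slf1* lay furthest below its control lines, *Smc6* encodes a core subunit, and *Nsmce1* is the member whose knockdown and control lines overlapped. RefSeq promoters of assembly GRCm38.p6 were found for 5 of the 7 genes, that is for all but *Slf2* and *Nsmce2*. The 250 bases before the annotated start are printed 5′ to 3′ on the strand of the gene. The RefSeq gene record of *Slf1* begins inside the stretch shown for it. Capitals mark exact matches, on either strand, to an E2F-type motif (TTTCCCGC, TTTGGCGC, TTTCGCGC, TTTGCCGC, TTTGGCGG or TTTCCCGG), to a cell cycle homology region, CHR (TTTGAA or TTCGAA), or to a CCAAT box (CCAAT). No motif lies inside another. The 3 genes shown are also the only ones of the 5 with an E2F-type match. *Smc5*, the other core subunit, and *Rad18* held none and are not shown.
*Slf1*, chr13:77135469-77135718, minus strand: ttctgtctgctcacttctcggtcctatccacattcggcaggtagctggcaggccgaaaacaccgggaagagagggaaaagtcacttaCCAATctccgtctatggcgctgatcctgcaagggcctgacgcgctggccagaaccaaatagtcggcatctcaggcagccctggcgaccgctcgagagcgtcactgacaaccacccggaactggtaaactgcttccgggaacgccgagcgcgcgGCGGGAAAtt
*Smc6*, chr12:11265636-11265885, plus strand: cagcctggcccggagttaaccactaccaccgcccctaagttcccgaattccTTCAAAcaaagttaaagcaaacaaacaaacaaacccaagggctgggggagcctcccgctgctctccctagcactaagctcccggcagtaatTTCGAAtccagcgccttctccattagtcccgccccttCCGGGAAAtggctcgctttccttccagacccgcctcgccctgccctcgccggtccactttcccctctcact
*Nsmce1*, chr7:125491444-125491693, minus strand, the first of 2 promoters: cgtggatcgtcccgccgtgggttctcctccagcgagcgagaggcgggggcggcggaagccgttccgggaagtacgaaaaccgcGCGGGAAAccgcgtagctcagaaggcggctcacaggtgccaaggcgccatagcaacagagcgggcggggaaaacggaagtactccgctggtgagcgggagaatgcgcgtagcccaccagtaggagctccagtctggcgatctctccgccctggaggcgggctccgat

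*Slf1* held an E2F-type match that began 10 bases before the start and a CCAAT box 163 bases before it. *Smc6* had an E2F-type match 71 bases before the start and CHR matches at 199 and 108 bases. In the first promoter of *Nsmce1* the E2F-type match lay 167 bases before the start. Over the whole window of 300 bases, which runs 50 bases past the start, 3 of the 5 members had an E2F-type match in at least 1 promoter, 1 had a CHR and 2 had a CCAAT box. Among all 32851 promoters of the same length 3.98% held an E2F-type motif, 19.2% a CHR and 37.4% a CCAAT box. These shares count promoters, whereas members were counted as genes, and *Nsmce1* and *Rad18* had 2 promoters each. *Smc5* and both promoters of *Rad18* had a match to none of these. A match is a stretch of letters and was not tested as a binding site. The match in *Nsmce1* and the lack of one in *Rad18* are given as letters in these windows and say nothing of a factor at either gene.

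The knockdown was seen in the RNA. On the log2 scale *Arid4b* was at 6.88 in H3 and 7.35 in H4, compared with 8.36 in untransduced cells, 8.24 in H5 and 8.34 with the scrambled hairpin. Of the 6 members other than *Slf1*, 5 fell in the knockdown lines at an unadjusted limma p below 0.05, which is the cut-off that the study used, and none rose. Over all 19938 genes 7.61% fell and 4.34% rose at that threshold, and 12.0% passed it in either direction. Among the 6 members other than *Slf1*, both knockdown lines lay below all 3 control lines in all but *Nsmce1*. That arrangement was found in 13.5% of all genes. *Slf1* showed it too, but was selected on its fold change. No gene passed an adjusted p under 0.05 from limma over all genes, and 3 genes, none of them a member, did so with an unmoderated equal-variance test. Because each array held RNA of a whole culture, fewer cells expressing a gene and less RNA per cell cannot be told apart.

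**Figure D1:**
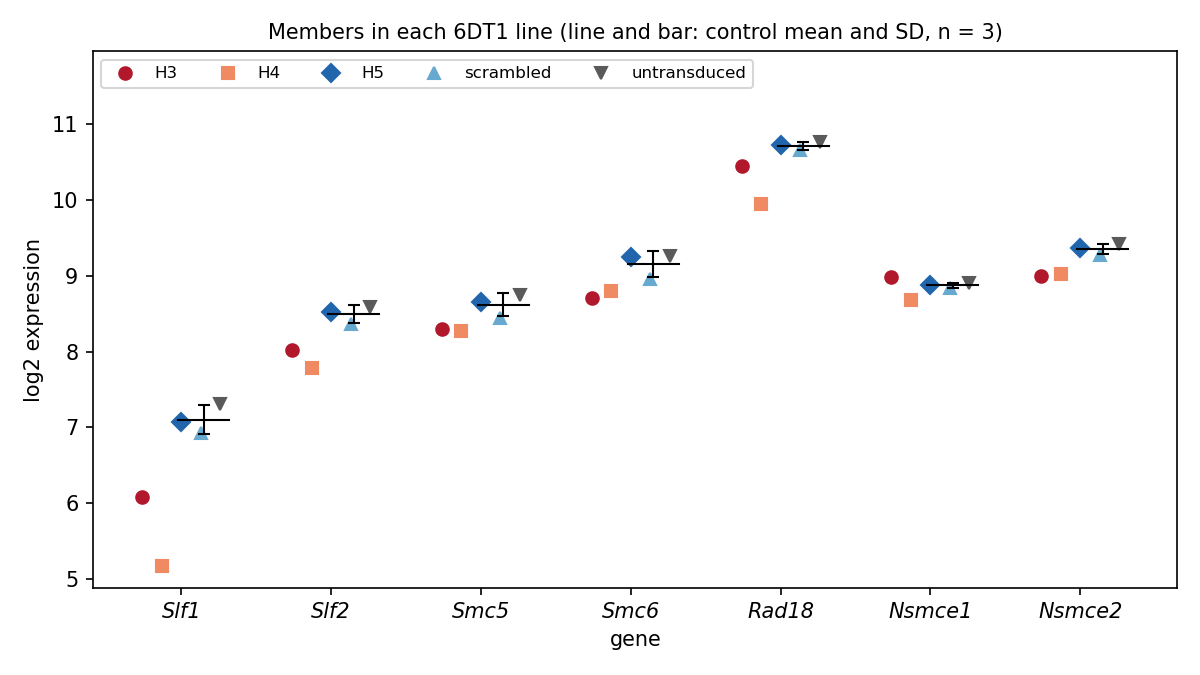
Log2 expression (vertical axis) of the 7 genes in each of the 5 lines, 1 point per line and array, with the mean and SD of the 3 control lines as a black line and bar. For *Slf1* H3 and H4 sit at 6.08 and 5.17, below control lines that start at 6.93, whereas for *Nsmce1* H3 lies above and H4 below the control lines. Levels of different genes come from different probe sets and are not comparable.

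*Slf1* encodes the adaptor that holds RAD18, a protein with BRCT and ankyrin repeats. It read 6.08 on the log2 scale in H3 and 5.17 in H4, compared with 7.30 in untransduced cells, 7.08 in H5 and 6.93 with the scrambled hairpin. Both knockdown lines were thus lower than every control line, and H4 was much the lower of the pair. The gap between H3 and the nearest control line was 0.85, against a range of 0.38 within the control lines, whose mean was 7.10 ± 0.19 (SD, n = 3 lines). The log2 fold change was -1.48 (standard error 0.30), which is a level of 35.9% of the control mean on the linear scale, and it ranked 7 from the lowest among the 19938 genes. In H4 only 21.2% of genes read lower than *Slf1*, against 52.3% to 56.6% in the control lines, and since no detection calls were used, whether the probe set was above background in H4 was not tested. Over 14 alternative settings the value ran from -1.94 without H3 to -1.02 without H4. The second *Slf1* probe set, which the choice of the highest mean left out, read 5.57 in H3 and 4.91 in H4, compared with 6.26 in untransduced cells, 6.31 in H5 and 5.97 with the scrambled hairpin. It showed the same order of H3 and H4 below the control lines, with a smaller log2 fold change of -0.94.

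The neighbours of *Slf1* on chromosome 13 were read after its values had been seen. Of the 8 protein-coding genes on either side in the RefSeq order, 15 in all were measured. Among them 1 passed an unadjusted p under 0.05 from limma, beside 12.0% of all genes. It was *Rhobtb3*, with a log2 fold change of -0.45 (standard error 0.11). The other neighbours had log2 fold changes between -0.30 and 0.29. The adjacent genes *Mctp1* and *2210408I21Rik* had 0.01 and -0.12. Their levels, 4.79 to 5.03 and 5.34 to 5.75, were under the array medians, and whether they were above background was not tested.

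The genes with profiles most like that of *Slf1* over the 5 lines were then listed. Likeness was measured as the root mean square difference of the 5 log2 values after centring each gene on its own mean, a description over 5 points that share their arrays. The nearest genes were *Kif4* (0.042), which encodes a chromosome-bound kinesin, *Cenpq* (0.052), a centromere protein, *Cip2a* (0.068), an inhibitor of protein phosphatase 2A, *Depdc1a* (0.069) and *Ska3* (0.077), which joins kinetochores to microtubules. *Kif4*, the closest, was 7.93 in H3 and 6.93 in H4, compared with 9.19 in untransduced cells, 8.92 in H5 and 8.75 with the scrambled hairpin. It shared with *Slf1* the larger decrease in H4 and the order of the control lines. The ranking on these same values selects for such likeness, so that it is no separate result. By Pearson correlation among genes with a range of at least 1 log2 unit, *Kif4* and *Ska3* remained among the nearest 5 and the other 3 were replaced. The other members ranked lower, *Slf2* being the closest at rank 366 (0.49) and *Rad18* next at rank 392 (0.50). This measure counts a smaller decrease as a distance, and over the 5 lines *Slf2* and *Rad18* had Pearson correlations with *Slf1* of 0.985 and 0.984 but ranges too small for the ranking by correlation. Of these 5 nearest genes 3 held a CHR match in their promoter window, 4 a CCAAT box and 1 an E2F-type match, beside the shares of all promoters given above. In the 250 bases before the start alone the CHR count was 2.

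**Figure D2:**
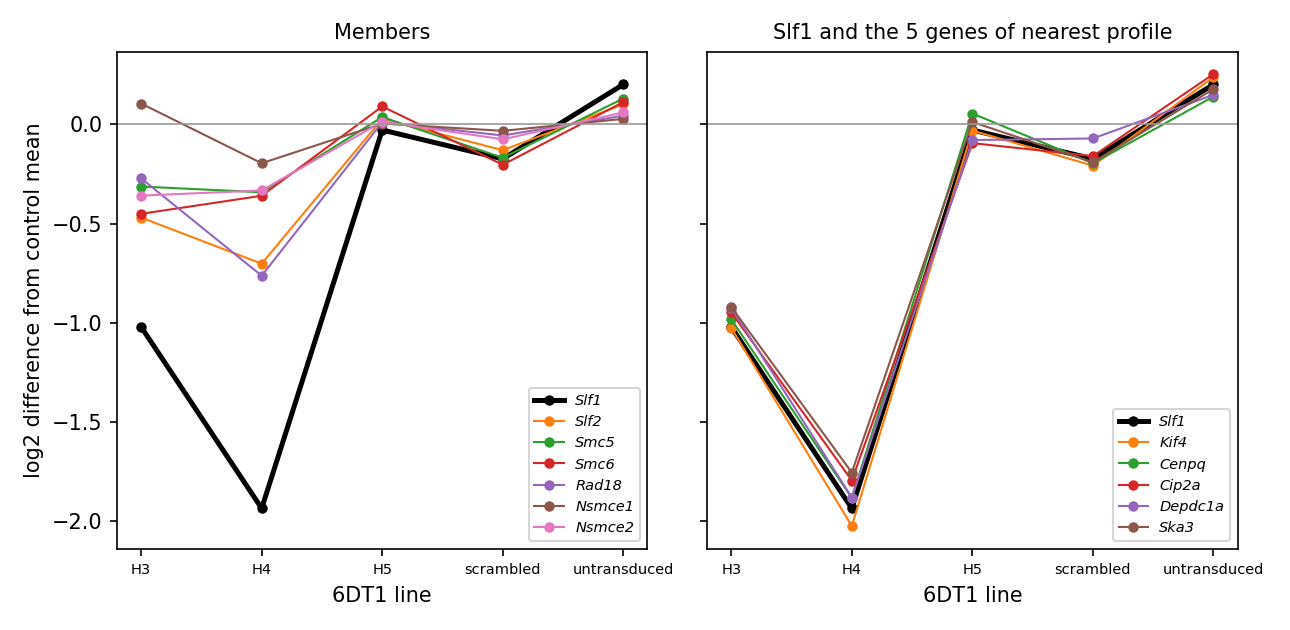
Log2 difference of each of the 5 lines (horizontal axis) from the mean of the 3 control lines (vertical axis), for the 7 members (left) and for *Slf1* with the 5 genes of nearest profile (right). Connecting lines only join the points of a gene. *Slf1* drops to -1.02 in H3 and -1.94 in H4, and *Kif4* to -1.03 and -2.03, while the other members reach -0.76 at the lowest, *Rad18* in H4.

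*Slf2*, the link between SLF1 and SMC5/6, was 8.02 in H3 and 7.79 in H4, compared with 8.59 in untransduced cells, 8.52 in H5 and 8.36 with the scrambled hairpin. Both knockdown lines lay under every control line. Relative to a control mean of 8.49 ± 0.12 (SD, n = 3 lines), *Slf2* fell by 0.59 on the log2 scale (standard error 0.11, unadjusted p = 0.00363 and adjusted p = 0.275 from limma over all genes). It passed the unadjusted threshold in all 14 alternative settings, with p from 0.000792 to 0.0324. Its second probe set gave a log2 fold change of -0.76, with 7.89 in H3 and 7.65 in H4 against 8.27 to 8.68 in the control lines.

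*Rad18* was 10.44 in H3 and 9.95 in H4, compared with 10.76 in untransduced cells, 10.73 in H5 and 10.66 with the scrambled hairpin. The control lines were close together and H4 stood well under H3. The log2 fold change was -0.52 (standard error 0.16, unadjusted p = 0.024 and adjusted p = 0.352 from limma over all genes), beside a control SD of 0.05. In 5 of the 14 alternatives *Rad18* did not pass, among them the unmoderated equal-variance test (unadjusted p = 0.0696). Others were leaving out H5 (unadjusted p = 0.0727 from limma), the scrambled control (0.0569) or the untransduced line (0.075).

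Both core subunits fell at the unadjusted threshold. *Smc5* was 8.30 in H3 and 8.27 in H4, compared with 8.75 in untransduced cells, 8.65 in H5 and 8.45 with the scrambled hairpin. H3 and H4 were nearly equal, and the gap from them to the scrambled control was 0.15. The log2 fold change of *Smc5* was -0.33 (standard error 0.10, unadjusted p = 0.0251 and adjusted p = 0.353 from limma over all genes). *Smc6* was 8.70 in H3 and 8.79 in H4, compared with 9.27 in untransduced cells, 9.24 in H5 and 8.95 with the scrambled hairpin. H3 was here the lower of the knockdown lines, and the log2 fold change was -0.41 (standard error 0.12, unadjusted p = 0.0202 and adjusted p = 0.344 from limma). With the unmoderated equal-variance test the unadjusted p was 0.0645 for *Smc5* and 0.0583 for *Smc6*. Each of these genes failed the unadjusted threshold in 7 of the 14 alternatives, that test included. For *Smc5* and *Smc6* in turn, these included leaving out H3 (unadjusted p = 0.116 and 0.138 from limma), H4 (0.137 and 0.0878), H5 (0.081 and 0.0674) or the untransduced line (0.0543 and 0.0603).

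Of the ligase subunits, 1 fell and the other did not pass. *Nsmce2*, the SUMO ligase, was 8.995 in H3 and 9.02 in H4, compared with 9.41 in untransduced cells, 9.37 in H5 and 9.28 with the scrambled hairpin. Here too the knockdown lines were almost equal and both were lower than the control lines. *Nsmce2* fell by 0.35 on the log2 scale (standard error 0.06, unadjusted p = 0.00233 and adjusted p = 0.259 from limma over all genes), and it passed the unadjusted threshold in all 14 alternatives, with p up to 0.0207. *Nsmce1*, the RING-type subunit, was 8.98 in H3 and 8.68 in H4, compared with 8.90 in untransduced cells, 8.88 in H5 and 8.84 with the scrambled hairpin. H3 was above and H4 below all control lines, so that the cohorts overlapped. Its log2 fold change was -0.05 (standard error 0.10, unadjusted p = 0.673 from limma). It was 0.11 without H4 and 0.03 after quantile normalization, and it was -0.20 without H3, where it passed (unadjusted p = 0.0126 from limma).

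The other 3 subunits complete the complex. *Nsmce4a*, the kleisin that bridges the SMC heads, was 8.18 in H3 and 7.95 in H4, compared with 8.78 in untransduced cells, 8.81 in H5 and 8.53 with the scrambled hairpin, and it fell by 0.64 on the log2 scale (standard error 0.12, unadjusted p = 0.00388 and adjusted p = 0.278 from limma). *Nsmce3*, the MAGE-family partner of NSMCE1, had a log2 fold change of -0.06 and lay between 7.95 and 8.08 in all 5 lines. *Eid3*, which encodes a second kleisin used mainly in the germ line, had -0.35 and did not pass (unadjusted p = 0.202 from limma). Without H4, 2 of the 3 fell. Between them the kleisin, the SUMO ligase and both SMC subunits fell, whereas the *Nsmce1* and *Nsmce3* pair did not pass the threshold.

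The members differed in how H3 compared with H4. The log2 value in H4 minus that in H3 was -0.92 for *Slf1*, -0.49 for *Rad18*, -0.30 for *Nsmce1* and -0.23 for *Slf2*. It was -0.03 for *Smc5*, 0.03 for *Nsmce2* and 0.09 for *Smc6*. Across all genes that difference had a median of -0.05 and an SD of 0.26. *Slf1* and *Rad18* lay further than the SD from the median, and the other 5 members, *Nsmce1* by a narrow margin (0.256 against 0.263), did not. The share of all genes outside the SD was not counted, so that this only describes the members. *Slf1* was moreover selected on a fold change to which H4 contributed. With 1 array per line these differences have no test. Of the 19 measured proliferation markers, H4 lay below H3 in 19, as it did in 58.9% of all genes, and their median log2 difference from the control mean was -0.46 in H3 and -1.18 in H4. Among them 18 fell at the unadjusted threshold from limma and none rose, beside 7.61% and 4.34% of all genes. *Ccna2* was at -1.17, *Bub1* at -1.10, *Rrm2* at -1.09 and *Tyms* at -1.02. The count of markers that fell was 4 without H5 (3.89% of all genes) and 5 without the untransduced line (5.07%). Their part in the lower levels of the members was not tested.

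In the control lines the 7 members kept a common order. The scrambled control was the lowest, H5 the middle and untransduced cells the highest in each of the 7, an order found in 20.3% of all genes and in 13 of the 19 proliferation markers. It held for the probe sets used, whereas in the second probe sets of *Slf1* and *Slf2* H5 was above untransduced cells (6.31 against 6.26 and 8.68 against 8.62). The difference from the scrambled control to untransduced cells ranged from 0.06 in *Nsmce1* to 0.38 in *Slf1*. Untransduced cells are also the 1 line without puromycin, so that selection and line cannot be told apart. Without them, 2 of the 6 members other than *Slf1* fell, *Slf2* and *Nsmce2*, beside 5.07% of all genes. The count was also 2 without H5 (3.89% of all genes), and 3 without H4 (9.96%).

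Partner genes were taken from 7 lists, which were also chosen with earlier results of these data known. Of 96 measured genes 38 (39.6%) fell and 3 rose at an unadjusted p under 0.05 from limma, against the 7.61% and 4.34% of all genes given above, and none passed the adjusted threshold. Their median log2 fold change was -0.22, beside 0.03 over all genes. The count of genes that fell was 18 without H5 (3.89% of all genes) and 24 without the untransduced line (5.07%). It was also lower without H3 or H4, where 1 knockdown line remained. The count that rose stayed at 3 when any 1 control line was left out.

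In the RAD18 pathway, which copies past lesions by PCNA modification and translesion polymerases, 9 of 23 genes fell, 2 rose and 12 did not pass. Over all genes 7.61% fell and 4.34% rose. *Parpbp*, which binds PCNA and limits recombination, stood at a log2 fold change of -1.08 (standard error 0.27), *Dtl*, a receptor for PCNA-coupled destruction, -0.94, *Zranb3*, a translocase that remodels forks, -0.85, and *Usp1*, the protease that removes ubiquitin from PCNA, -0.82 (standard error 0.12). The 2 genes that rose, named after their values had been seen, were the translesion polymerases *Polk* at 0.48 (standard error 0.06) and *Rev1* at 0.34 (standard error 0.05). *Polk* was 9.94 in H3 and 9.88 in H4 against 9.36 to 9.48 in the control lines, without overlap. Of the other polymerase genes in the list *Pold3* fell, at -0.69 (standard error 0.07). *Polh* at -0.29, *Primpol* at -0.09, *Rev3l* at 0.01 and *Poli* at 0.28 did not pass. The count that rose stayed at 2 when any 1 control line was left out. *Ube2a* and *Ube2b*, which encode the conjugating enzymes that work with RAD18, had -0.20 and 0.00 and did not pass.

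Of 7 other SMC proteins 6 fell and none rose, beside 7.61% and 4.34% of all genes. *Smc2* and *Smc4*, the condensin pair, were at -1.10 (standard error 0.32) and -0.66 (standard error 0.17) on the log2 fold scale, *Rad50*, of the break-binding MRN complex, -0.52, and *Smchd1*, which acts on the inactive X chromosome, -0.44. *Smc1a* and *Smc3*, the cohesin pair, had -0.34 and -0.33, close to *Smc5* at -0.33 and *Smc6* at -0.41. *Smc1b*, the meiotic cohesin subunit, had 0.10 and did not pass. The count of SMC genes that fell was 3 without H5 (3.89% of all genes) and without the untransduced line (5.07%). It was also lower without H3 or H4, where 1 knockdown line remained.

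Among genes for the dissolution and cutting of joint molecules, a process in which SMC5/6 acts, 8 of 12 fell and none rose. Over all genes 7.61% fell and 4.34% rose. *Gen1*, a nuclease for Holliday junctions, had -1.40 (standard error 0.38), *Eme1*, partner of the MUS81 nuclease, -0.95, *Blm*, a helicase, -0.72 and *Rmi1*, its partner, -0.66 (standard error 0.08). *Mus81* itself had -0.07 and *Slx4* 0.00. The count was 3 without H5 (3.89% of all genes) and 5 without the untransduced line (5.07%). Of the fits without a line it was lowest without H4, where 1 knockdown line remained.

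The list of proteins with BRCT repeats, the domain that SLF1 carries, had 21 measured genes. Of these 9 fell and 1 rose, *Rev1* again, beside 7.61% and 4.34% of all genes. The list included *Brip1*, a helicase that the repeats of BRCA1 bind and that carries none. Without it, as was tried after the data had been seen, 8 of 20 fell. *Dbf4*, the activator of the replication kinase CDC7, had -1.20, *Brip1* -1.10, *Brca1* -1.02 and *Ect2*, a factor for cytokinesis, -0.95. The count was 2 without H5 (3.89% of all genes) and 4 without the untransduced line (5.07%). It was also lower without H4, where 1 knockdown line remained.

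In ubiquitin signalling at breaks, which precedes RAD18 at damaged chromatin, 2 of 14 genes (14.3%) fell and 1 (7.14%) rose. Over all genes 7.61% fell and 4.34% rose, so that counts this small lie near those shares. They were *H2ax* at -0.62 and *Mdc1* at -0.42, and *Rnf169*, which competes for the same chromatin mark, at 0.67. *Rnf168*, the ligase that writes this mark, was 8.82 in H3 and 8.74 in H4 against 8.87 to 9.36 in the control lines and did not pass (unadjusted p = 0.079 from limma). Leaving out H5 or the untransduced line gave a count of 0 that fell, and the count was 5 without the scrambled control. The count that rose stayed at 1 when any 1 control line was left out.

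For SUMO conjugation, the modification made by NSMCE2, 4 of 19 genes (21.1%) fell and none rose, beside 7.61% and 4.34% of all genes. *Senp1*, a SUMO protease, had -0.51, *Sumo3* -0.46, *Sae1*, a subunit of the activating enzyme, -0.41 and *Topors*, a ligase, -0.29. *Senp6*, the protease that trims SUMO chains, had -0.07 and *Pias1*, *Pias3* and *Pias4*, ligases like NSMCE2, had -0.15, -0.26 and -0.06, *Pias2* had 0.08, and none of these passed. Leaving out H5 or untransduced cells gave counts of 1 and 2.

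**Figure D3:**
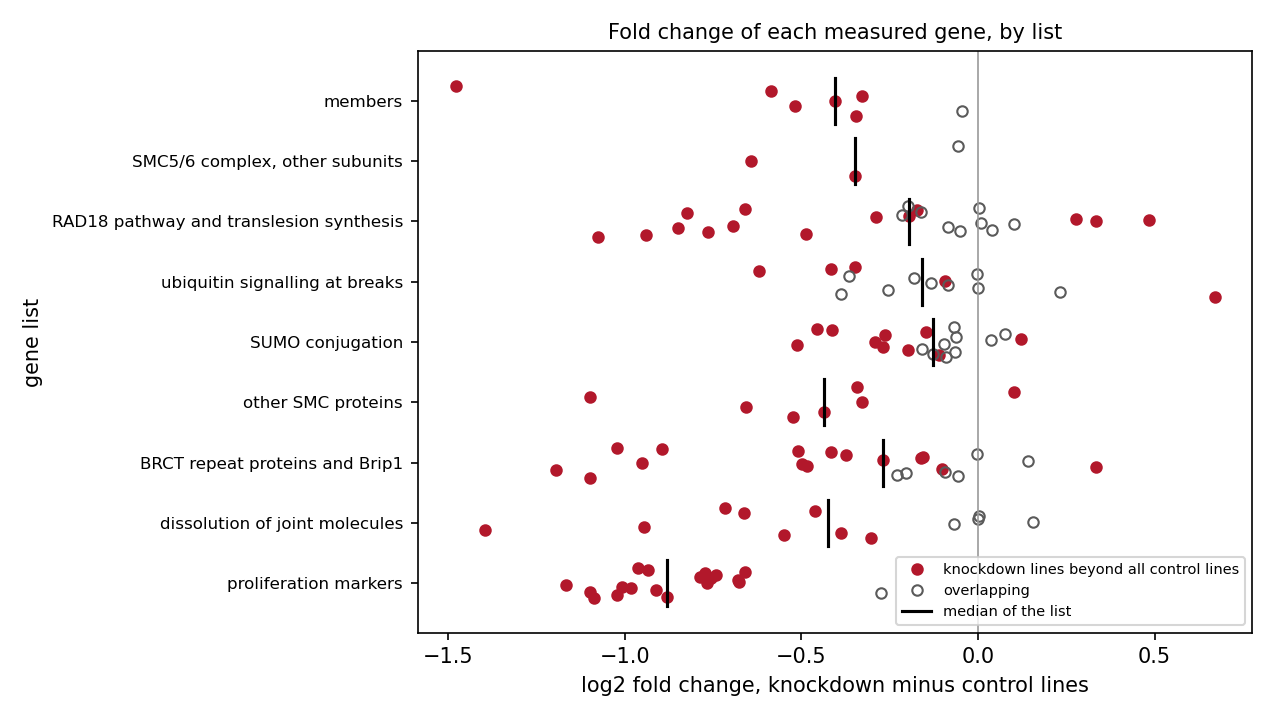
Log2 fold change of the knockdown against the control lines (horizontal axis) for each measured gene of the members, the 7 partner lists and the proliferation markers (rows), with filled points where H3 and H4 were both above or both below the control lines, open points where they overlapped, and a vertical bar at the median of each row. *Slf1* stands at -1.48, apart from the other members between -0.59 and -0.05, and the proliferation markers have the lowest median, -0.88.

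Some facts of the arrays bear on these values. Over all probe sets H3 had a median of 6.35 and the other lines 6.24 to 6.25, and the SD was 2.25 in H3 against 2.29 to 2.30, so that H3 values were less spread. Log2 fold changes of the members were 0.05 lower with array medians subtracted, and they were -1.51 for *Slf1* and -0.24 for *Smc5* after quantile normalization. Of 9 epithelial markers none passed the unadjusted threshold from limma. *Krt8* (11.81 to 12.26) and *Krt18* (11.57 to 11.71) were above the array medians in all lines, while *Epcam* (5.61 to 5.75) and *Cdh1* (6.05 to 6.16) were under the array medians. None of 8 fibroblast and endothelial markers passed. Of 7 macrophage and leukocyte markers 2 rose, *Cd68* at 0.95 (levels 9.93 to 10.96) and *Csf1r* at 0.20 (levels 5.26 to 5.54). *Csf1r*, *Ptprc* (4.98 to 5.15) and *Adgre1* (4.53 to 4.70) were under the array medians in all lines. In H3 the median log2 difference from the control mean was 0.14 over the epithelial markers. It was 0.18 over the fibroblast and endothelial markers and 0.09 over the macrophage and leukocyte markers. In H4 these medians were -0.08, 0.05 and 0.02. The part of the higher array median of H3 in these differences was not tested. When any 1 of the 3 control lines was left out, 1 macrophage and leukocyte marker rose. When H3 or H4 was left out, leaving 1 knockdown line, more markers of these lists passed, as did more of all genes.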

How the data were processed

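RNA of 5 lines was hybridised to Affymetrix Mouse Gene 1.0 ST arrays. The authors normalized the arrays in Partek Genomics Suite, and the processing notes name RMA; the deposited values are log2 expression values per probe set, with tool versions not given in the sources used here. Of 35556 probe sets, 21789 had 1 symbol in the platform annotation, 1621 had several and 12146 were unnamed here. Symbols were updated through gene IDs with RefSeq (GRCm38.p6; 21698 matched). The highest-mean probe set was kept per gene.

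Cohorts followed the ARID4B level in the labels. limma 3.58.1 (lmFit, eBayes; R 4.3.3) was fitted to all genes, with 1.58 prior and 3 residual degrees of freedom and Benjamini-Hochberg adjustment, and was tested on simulated data. Lists were described by counts and medians, without a set test. Named genes were the members, *Arid4b*, up to 4 genes per list with the largest change at the unadjusted threshold and without overlap, and the 5 nearest to *Slf1*; other genes of the lists were named for their role after their values had been seen. The members, lists and rules were chosen with earlier results of these data known. Some listed genes were not analysed here. Alternatives were an unmoderated equal-variance test (the study names ANOVA), trend and robust options, subtraction of array medians, quantile normalization, leaving out dim genes, averaging probe sets, array weights, puromycin as a covariate, regression on densitometry, and leaving out each line. Where 1 knockdown line was left, its spread was taken to be that of the control lines. Figures were drawn with matplotlib 3.10.9.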

Additional observations from a re-analysis of the deposited data

How the results depend on the processing

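The 6 members other than *Slf1*, of which 5 fell, gave 2 with the unmoderated equal-variance test, 3 with array weights, 2 with puromycin as a covariate, and 2 to 4 when a line was left out; the covariate fit equals leaving out the untransduced line, the 1 unselected array. Of the partner genes, 38 of which fell, 20, 24 and 24 did so under those 3 settings and 18 to 41 with a line left out; 3 to 7 rose with a line left out. Over all genes the counts that fell, 1517, became 835, 905 and 1011, and 776 to 1986 with a line left out. The counts that rose, 866, became 509 with array medians subtracted, 1300 after quantile normalization, 382 with array weights, 508 with puromycin as a covariate, and 408 to 4901 with a line left out. At the adjusted threshold the count of 0 became 3 with the unmoderated test, 4 without dim genes (the lowest by mean over the arrays), 1 with regression on densitometry, and 0 to 1266 with a line left out, the last without H4, where the spread comes from the control lines alone. *Nsmce1* ran from -0.196 without H3 to 0.105 without H4, and turned to 0.0337 after quantile normalization. Of the 5 genes nearest to *Slf1*, 2 were shared with the Pearson ranking. Promoter counts of the members were the same in the 250 bases before the start. Background correction and scan batches were not examined, since normalized values were used. No paired analysis was possible because the lines carry no shared replicate numbers. The causes of these shifts were not tested.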
